A study of Drosophila melanogaster with 54 samples.

Results

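The genes of the cytoplasmic ribosome were followed through sorted cells of Drosophila melanogaster embryos. The members were the genes whose symbol starts with RpL, RpS or RpLP and a number and which have a probe set of their own. There were 37 of them among the 10844 genes with a single-gene probe set, and each was measured by 1 probe set of the 13966 tested. RefSeq lists 92 genes of this name pattern, so the arrays cover a part of the ribosome under these names. The 37 fall into 16 large subunit proteins, 3 proteins of the large subunit stalk, 15 small subunit proteins and 3 relatives of ribosomal proteins that are known in yeast from ribosome assembly (RpL7-like, RpL24-like and RpLP0-like).

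RNA was measured on 54 Affymetrix DrosGenome1 arrays, 3 per group, in 3 numbered sets. Every embryo carried Twi-GAL4 and UAS-GFP, so that GFP marked Twist expressing cells, and the cells were sorted by fluorescence. Each set held wild type cells of both gates, GFP positive and GFP negative, and all other groups were GFP positive. Set 1 added UAS-lambda-Top (activated EGFR), UAS-lambda-Htl with UAS-Dof (activated FGFR) and spi mutant embryos. Set 2 added UAS-Arm s10 (Arm), UAS-Ras1 Act (Ras), both transgenes (Arm+Ras), UAS-Pnt P2VP16 (Pnt), UAS-Tkv QD (Tkv) and wg mutant embryos. Set 3 added Dl mutant embryos, lmd mutant embryos and UAS-Notch intra (Notch). The transgenes were driven only where Twi-GAL4 is active, whereas a mutant embryo carries the mutation in all of its cells, and the labels name no alleles. Embryos were aged at 25 °C to 5.5 to 7.5 h after egg deposition, except that the 3 genotypes of set 3 were 6 to 8 h old against wild type cells of 5.5 to 7.5 h. No label says that replicate arrays came from separate collections of embryos, so p-values measure only the spread between these samples.

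The ribosome is built from ribosomal RNA and about equal amounts of each ribosomal protein. In Drosophila most ribosomal protein genes are needed in full dose, and flies with 1 working copy show the slow growth and thin bristles called Minute. Some of the proteins have a second gene, a paralog, which is often used in the ovary or testis, while the other copy is used throughout the body.

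Most ribosomal protein probe sets gave bright signals. Of the 37 probe sets, 31 had a mean in the top 5% of all probe sets. RpS20, a small subunit protein, averaged 12.68 on the log2 scale over all arrays, where the highest value of any probe set was 13.515. The 4 members below the median probe set were paralogs or relatives of broadly used genes, namely RpL22-like (mean 1.33), RpL10Aa (2.12), RpS28a (2.38) and RpS19b (3.18). The spread between replicate arrays was small for the members, with a median SD within groups of 0.110 against 0.593 over all probe sets. Differences of 0.2 on the log2 scale could therefore pass the test here, whereas dim members spread too widely for that. Shares called over all probe sets are thus an unlike background for bright members. Shares among brighter probe sets (mean above the median, tested on their own) are also given. Array medians differed between the sets (3.645 to 4.615), so levels are compared within a set only. Marker genes of mesoderm were higher in GFP positive cells for 5 of 5 measured, and those of ectoderm lower for 5 of 5. Markers of hemocytes and fat body, which also arise from mesoderm, were higher for 4 of 4. In bulk samples, fewer cells of a type and less RNA per cell cannot be told apart.

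**Figure D1:**
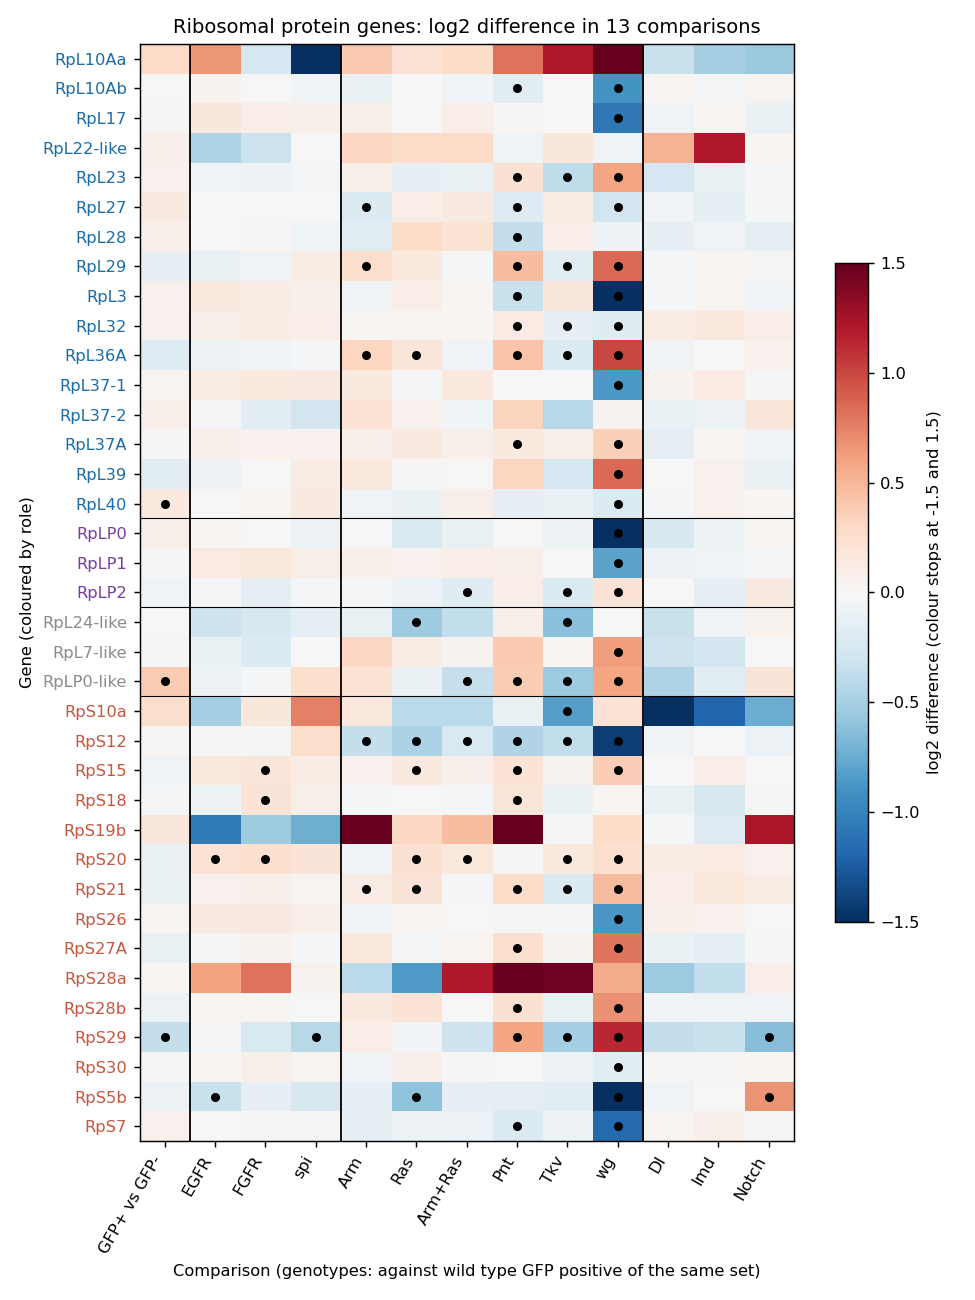
Log2 differences of the 37 genes (rows, grouped and coloured by role) in the comparison of GFP positive with GFP negative wild type cells and in the 12 genotypes against wild type GFP positive cells of their own set (columns, with vertical lines between sets). Colour runs from blue (lower) to red (higher), black points mark an adjusted p under 0.05, and most points lie in the wg, Pnt and Tkv columns.

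Between sorted mesoderm and the other cells of the embryo, few ribosomal protein transcripts differed. The median difference between GFP positive and GFP negative wild type cells over the 37 members was 0.02 on the log2 scale, against 0.00 over all probe sets. With 18 arrays and the set as a block, 3 members passed the test at an adjusted p of 0.05 (8.11%), against 16.7% of all probe sets (8.03% higher and 8.66% lower). Among brighter probe sets the share was 32.1%. Adjusted p-values are from limma, by the Benjamini-Hochberg method over all probe sets. All 37 differences lay between -0.36 and 0.38.

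RpLP0-like had the largest difference. Its yeast counterpart takes the place of the stalk protein P0 on the maturing large subunit. GFP positive arrays read 8.70, 8.78 and 8.54 in set 1 against 7.97, 8.12 and 8.15 in GFP negative arrays. In set 2 they read 9.25, 9.32 and 9.22 against 9.05, 9.003 and 9.02, and in set 3 they read 7.75, 8.16 and 8.06 against 7.37, 7.84 and 7.82. The gates did not overlap in sets 1 and 2 and overlapped in set 3. The difference was 0.38 ± 0.08 (SE, 1.3-fold, adjusted p = 0.00173).

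The other 2 calls were near the threshold. RpL40, a large subunit protein made as a fusion to ubiquitin, was higher by 0.15 ± 0.05 (adjusted p = 0.05, just under the threshold). RpS29, a small subunit protein with a zinc finger, was lower by a log2 difference of -0.36 ± 0.12 (adjusted p = 0.0438). Leaving out any 1 of 12 arrays ended the call of RpL40 (adjusted p 0.0599 to 0.103), namely all of set 2, GFP negative 1A, 1C and 3C and GFP positive 1B, 1C and 3A. Leaving out any 1 of 14 ended that of RpS29 (adjusted p 0.0517 to 0.0925), namely all of sets 1 and 2, GFP negative 3C and GFP positive 3A. Without the variance trend 1 member was called, against 14.8% of all probe sets. After quantile normalization 1 member was higher and 1 lower, against 7.94% and 8.72% of all probe sets. The next largest differences that did not pass were RpL10Aa (0.30), RpS10a (0.26) and RpS19b (0.17) on the high side and RpL36A (-0.19), RpL39 (-0.16) and RpL29 (-0.12) on the low side.

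The difference between the gates was not the same in the 3 sets. An F test of the gate by set term called 7 of the 37 members (7.94% of all probe sets were called). Among brighter probe sets the share was 18.8%, near that of the members. RpL36A, a large subunit protein, read 12.17, 12.30 and 12.26 in the GFP positive arrays of set 2 and 12.84, 12.89 and 12.82 in the GFP negative arrays, so the gates were apart there. Its difference was -0.61 in set 2, but 0.08 in set 1 and -0.05 in set 3 (adjusted p of the F test 0.00541). RpL29, another large subunit protein, differed by -0.51 in set 2, 0.06 in set 1 and 0.10 in set 3 (adjusted p = 0.00733).

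Small subunit genes gave the other 5 calls. RpS29 differed by -0.33 in set 1, -0.86 in set 2 and 0.11 in set 3 (adjusted p = 0.00747). RpS21 (-0.33), RpS28b (-0.41) and RpS27A (-0.42) were also lower in the GFP positive cells of set 2. Their differences in the other sets lay between -0.11 and 0.19. RpS7 went the other way, with 0.22 in set 2, 0.04 in set 1 and -0.08 in set 3. The call of RpS27A ended without GFP negative array 2B, 2C, 3A or 3C or GFP positive array 2B or 2C (adjusted p up to 0.0767). That of RpS7 ended without any 1 of 15 arrays, all but GFP negative 2A and 3B and GFP positive 3B (adjusted p up to 0.127). Without the variance trend the F test of limma called 0 members, against 4.49% of all probe sets, and 7 had an unadjusted p under 0.05. Fitted on its own, set 2 called 14 members (6 higher and 8 lower), against 13.1% of all probe sets (6.64% higher and 6.44% lower). Set 1 called 2, against 11.5%, set 3 called 0, against 4.14% (2 had an unadjusted p under 0.05), and sets 1 and 3 together called 2, against 11.8%.

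**Figure D2:**
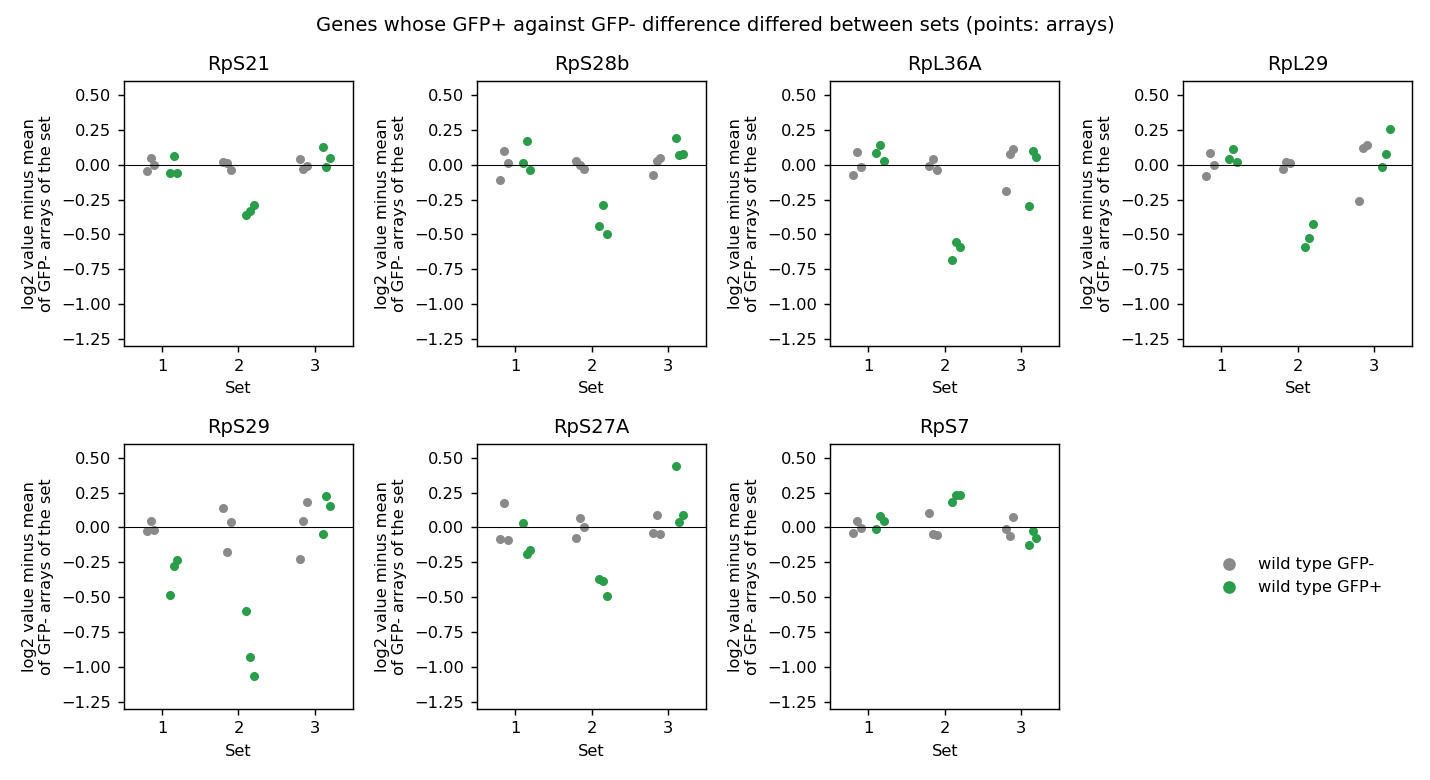
The 7 genes whose gate difference differed between sets. Each point is 1 wild type array, drawn as its log2 value minus the mean of the GFP negative arrays of its set, with the set on the horizontal axis. In set 2 the GFP positive points of 6 genes lie below the GFP negative points and those of RpS7 above them.

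Loss of wg gave the widest split among ribosomal protein genes. In GFP positive cells of wg mutant embryos, 28 of 37 members differed from wild type (75.7%), 14 higher and 14 lower, against 26.6% of all probe sets (11% higher and 15.5% lower). The median over the members was 0.06, so the class did not shift one way as a whole. The median size of the difference was 0.59, against 0.62 over all probe sets. Brighter probe sets were called for 49.4%. No called member overlapped between the 3 wg arrays and the 3 wild type arrays, and neither did 95.7% of all called probe sets. Without the variance trend 23 were called (12 higher and 11 lower, against 25.9% of all probe sets). After quantile normalization 27 were called (15 higher and 12 lower, against 26.4% of all probe sets). There RpL40 (0.22) and RpL27 (0.18) turned to higher.

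Among the genes that fell, RpS5b fell most. It encodes a small subunit protein and is the paralog of RpS5a. The wild type arrays read 12.14, 12.30 and 12.19, and the wg arrays 9.74, 9.91 and 9.76. Its difference was -2.40 ± 0.08 (5.29-fold lower, adjusted p = 7.13e-15). Leaving out wild type GFP positive cells, all other groups of set 2 stood between 11.50 and 12.25 for RpS5b.

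RpLP0, the base of the stalk that recruits the translation GTPases, read 12.21, 12.25 and 12.25 in wild type and 10.59, 10.73 and 10.59 in wg. That is a difference of -1.60 ± 0.08 (3.03-fold lower, adjusted p = 1.31e-12). RpL3, a large subunit protein near the peptidyl transferase centre, read 12.71, 12.73 and 12.71 in wild type and 11.32, 11.05 and 11.24 in wg. Its difference was -1.51 ± 0.06 (2.86-fold lower, adjusted p = 3.06e-14). RpS12 is a small subunit protein known in Drosophila for its part in the competition between wild type and Minute cells. It read 12.24, 12.18 and 12.22 in wild type and 10.92, 10.64 and 10.82 in wg, a difference of -1.42 ± 0.06 (2.67-fold lower, adjusted p = 7.23e-14). The other 10 genes that fell differed by -1.17 to -0.18, and 1 of them, RpL40, lost its call without wg array 2B (adjusted p = 0.0642).

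Among the called genes that rose, RpS29 had the largest difference, and RpL10Aa (1.72, adjusted p = 0.263) did not pass. RpS29 read 9.30, 8.97 and 8.83 in wild type and 10.30, 10.08 and 10.10 in wg, a difference of 1.13 ± 0.14 (2.18-fold, adjusted p = 1.66e-06). RpL36A read 12.17, 12.30 and 12.26 in wild type and 13.20, 13.28 and 13.24 in wg, a difference of 1.00 ± 0.03 (2-fold, adjusted p = 7.13e-15). These wg values lie close to the top of the scale, and the wild type GFP negative arrays of the set, at 12.84, 12.89 and 12.82, lay between the GFP positive wild type and wg arrays.

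RpL29 read 12.21, 12.28 and 12.37 in wild type and 13.14, 13.11 and 13.17 in wg, a difference of 0.85 ± 0.05 (1.8-fold, adjusted p = 1.53e-11). RpL39, one of the smallest ribosomal proteins and part of the peptide exit tunnel, read 12.10, 12.13 and 11.90 in wild type and 12.79, 12.95 and 12.94 in wg. Its difference was 0.85 ± 0.11 (1.8-fold, adjusted p = 1.76e-06). The other 10 genes that rose differed by 0.22 to 0.80.

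Both directions occurred in both subunits and in the stalk. Of the 16 large subunit genes, 5 rose and 7 fell. Of the 15 small subunit genes, 6 rose and 5 fell. The stalk divided as well, and its 3 genes are given here although they were picked after their values were seen. RpLP0 and RpLP1 (-0.81 ± 0.05) fell, while RpLP2, which forms the same stalk together with RpLP1, rose by 0.22 ± 0.04. The rise of RpLP2 lost its call without the variance trend (adjusted p = 0.124) and after quantile normalization (0.09, adjusted p = 0.369). It also did so with the eIF-4a control described below as a covariate (0.16, adjusted p = 0.659). The split of the stalk is therefore uncertain. Of the assembly relatives, RpL7-like (0.63) and RpLP0-like (0.59) rose and RpL24-like did not pass the test (-0.01).

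**Figure D3:**
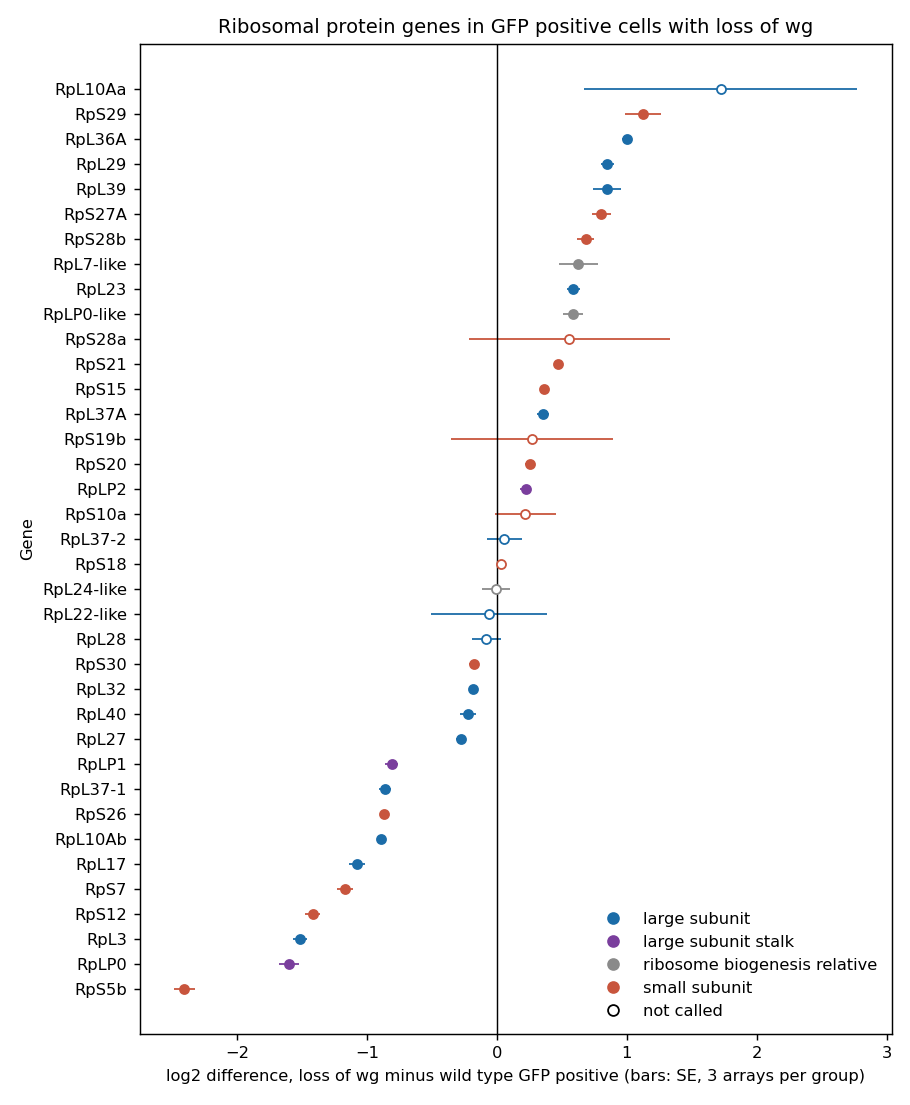
All 37 genes ordered by the log2 difference between wg mutant and wild type GFP positive cells of set 2. Points are differences from limma with their SE (3 arrays per group), filled where the adjusted p was under 0.05 and coloured by role. The falls reach from RpS5b at -2.40 and the called rises reach RpS29 at 1.13, and both subunits are found on each side.

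Control probe sets differed between these arrays too. Affymetrix places probe sets at the 3′ and the 5′ end of the eIF-4a transcript, and a larger 3′ minus 5′ difference is commonly read as shorter labelled copies. That difference was 3.29 to 3.59 in the wg arrays, 2.01 to 2.24 in wild type GFP positive and 1.81 to 2.37 in all other groups of set 2. For the actin control it was 1.38 to 1.39 in wg, against 0.88 to 1.00 in wild type, and for GAPDH 0.53 to 1.49 against 0.14 to 0.19. With the eIF-4a difference as a covariate, 15 members were called in wg, 5 higher and 10 lower, against 5.68% of all probe sets. RpS5b (-3.15, adjusted p = 3.03e-08), RpL3 (-1.31, adjusted p = 0.000198) and RpL36A (0.82, adjusted p = 8.35e-05) were among these, and RpL39 was not (0.72, adjusted p = 0.305). This covariate was chosen after seeing the control values. The wg arrays lay above every other array of set 2 in this control. Its shift and the genotype therefore cannot be told apart, and this fit cannot separate them. Of the cell type markers, mesoderm gave 2 lower of 5, ectoderm 1 of 5, neural cells 1 of 4, hemocytes and fat body 1 of 4, germ cells 1 of 7 and endoderm and yolk 2 of 4, with 0 higher in each list, and their part in the result was not tested.

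**Figure D4:**
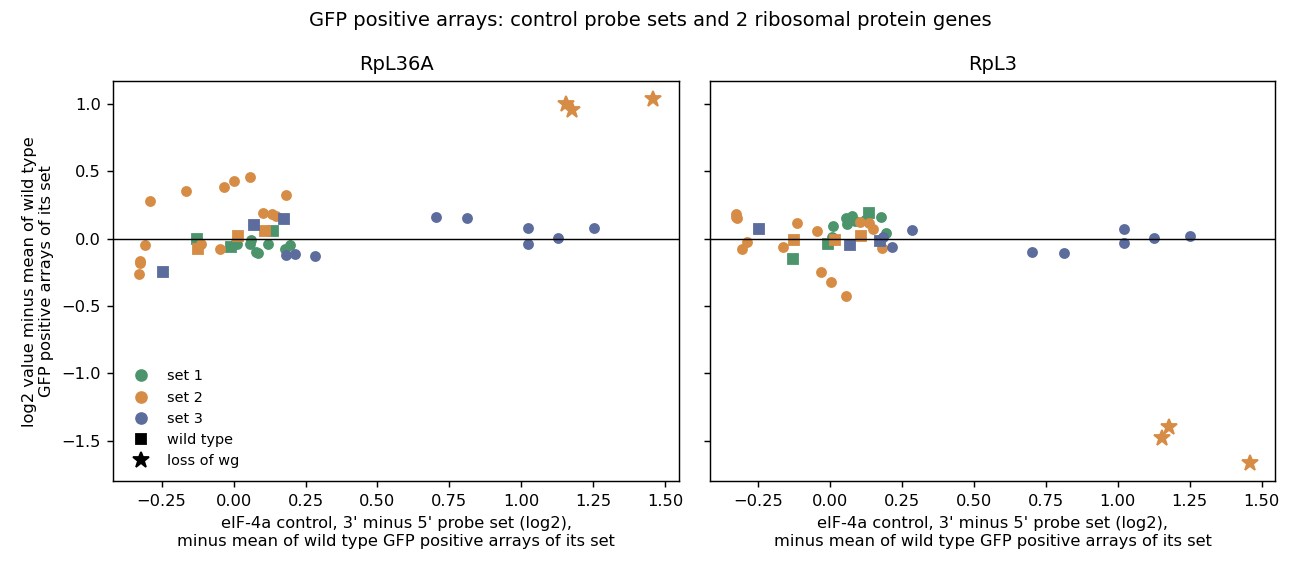
GFP positive arrays of all sets, with the eIF-4a control (3′ minus 5′ probe set) on the horizontal axis and the log2 value of RpL36A (left) or RpL3 (right) on the vertical axis, each minus the mean of the wild type GFP positive arrays of the same set. The 3 wg arrays (stars) lie at control shifts of 1.15 to 1.46 and at mean differences of 1.00 for RpL36A and -1.51 for RpL3, and the genotype arrays of set 3 lie at control shifts of 0.18 to 1.25.

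Activated Pnt gave the next largest number of calls. Pnt is an ETS factor at the end of the Ras pathway, here fused to an activation domain. Of the 37 members, 18 differed from wild type (48.6%), 12 higher and 6 lower, against 8.85% of all probe sets (3.87% higher and 4.98% lower). The median was 0.11 over the members and 0.00 over all probe sets. The median size of the difference was smaller in the members, 0.21 against 0.37 over all probe sets. Brighter probe sets were called for 19.9%. RpL36A read 12.70, 12.62 and 12.67 in Pnt, above its 3 wild type arrays, a difference of 0.42 ± 0.03 (1.34-fold, adjusted p = 5.07e-08). RpL29 read 12.75, 12.70 and 12.81, also above all 3 wild type arrays, a difference of 0.47 ± 0.05 (adjusted p = 1.09e-06).

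Among called members, RpS29 had the largest rise in Pnt. The differences of RpS19b (1.99, adjusted p = 0.0513, without overlap), RpS28a (1.77, adjusted p = 0.198) and RpL10Aa (0.82, adjusted p = 0.785) were larger and did not pass. The RpS29 arrays read 9.91, 9.48 and 9.50, above all wild type arrays, a difference of 0.59 ± 0.14 (1.51-fold, adjusted p = 0.00751). Its call ended without Pnt array 2A (0.45, adjusted p = 0.0577) and without wild type array 2C (0.49, adjusted p = 0.0541). RpLP0-like rose by 0.38 ± 0.08 (adjusted p = 0.00233).

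The falls in Pnt were led by RpS12, which read 11.83, 11.72 and 11.74, below the wild type arrays, with a difference of -0.45 ± 0.06 (1.37-fold lower, adjusted p = 1.24e-05). RpL3 read 12.29, 12.47 and 12.39, also below wild type, with a difference of -0.33 ± 0.06 (adjusted p = 0.000391). RpL28 (-0.36 ± 0.11, adjusted p = 0.0467) overlapped with wild type, and RpS7 differed by -0.22 ± 0.06 (adjusted p = 0.0251). The calls of RpL28 and RpS7 ended when Pnt array 2A or 2B or wild type array 2B or 2C was left out (adjusted p up to 0.182 and 0.116). RpS27A, RpL37A and RpS28b, which rose by 0.15 to 0.24, also lost their call without 1 array, so 12 of 18 held without any 1 array (RpS27A without Pnt 2A or 2B or any wild type array, RpL37A without Pnt 2A or 2C or wild type 2B or 2C, RpS28b without Pnt 2A or wild type 2A or 2C, adjusted p up to 0.213). Without the variance trend 4 members were called, against 6.71% of all probe sets. The eIF-4a difference in Pnt, 2.10 to 2.19, lay within the range of its wild type, but the other controls did not. Actin was 1.16 to 1.27 in Pnt against 0.88 to 1.00 in wild type, and GAPDH -1.14 to -0.45 against 0.14 to 0.19. Of 5 ectoderm markers 3 and of 4 neural markers 1 were lower in Pnt. The part of these controls and markers in the result was not tested.

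Activated Tkv, a type I receptor of Dpp, gave 12 calls in 37 members (32.4%) against 8.38% of all probe sets (4.43% higher and 3.95% lower), and 11 of the 12 were lower. The median over the members was -0.08, against -0.02 over all probe sets. Sizes of the differences had a median of 0.12 in the members, below the 0.355 over all probe sets. Brighter probe sets were called for 18.5%. The largest falls were in RpS10a and in 2 of the assembly relatives. RpS10a, the less used paralog of a small subunit protein, read 4.80, 4.85 and 4.65 in Tkv and 5.38, 5.74 and 5.67 in wild type. The groups did not overlap, and the difference was -0.83 ± 0.24 (1.78-fold lower, adjusted p = 0.031), but the call ended without any 1 array other than wild type 2A (adjusted p up to 0.131).

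RpL24-like, the counterpart of a yeast factor that is exchanged for the ribosomal protein L24 late in assembly, read 8.16, 8.58 and 8.61 in Tkv and 8.92, 9.13 and 9.20 in wild type. Its difference was -0.63 ± 0.11 (1.55-fold lower, adjusted p = 0.000541). RpLP0-like read 8.60, 8.78 and 8.79 in Tkv and 9.25, 9.32 and 9.22 in wild type, a difference of -0.54 ± 0.08 (adjusted p = 0.000101). In both genes every Tkv array lay below every wild type array. RpS29 (-0.50 ± 0.14, adjusted p = 0.0283) lost its call without any 1 array other than wild type 2C (adjusted p up to 0.148). RpL29 lost its call without Tkv 2A or 2C or wild type 2B or 2C (adjusted p up to 0.243) and RpL32 without Tkv 2A (adjusted p = 0.0588), so 8 of 12 held. Without the variance trend 4 members were called, against 5.91% of all probe sets. The controls of Tkv lay below those of wild type, with eIF-4a at 1.81 on all 3 arrays against 2.01 to 2.24, actin at 0.53 to 0.68 against 0.88 to 1.00 and GAPDH at -0.72 to -0.47 against 0.14 to 0.19. With the eIF-4a covariate 8 members were called, 1 higher and 7 lower, against 4.03% of all probe sets, and RpS10a, RpLP2, RpL29 and RpL32 lost their call (adjusted p 0.0542 to 0.186). Tkv and its wild type did not overlap in this control, so that fit cannot separate its shift from the genotype. Of 4 markers of hemocytes and fat body 2 and of 5 mesoderm markers 1 were higher in Tkv, and their part in the result was not tested. RpS20 was the 1 gene that rose, by 0.15 ± 0.03 (adjusted p = 0.00506).

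Fewer genes passed with Arm and Ras. Activated Armadillo, the beta-catenin of the Wg pathway, changed 5 members (13.5%), 3 higher and 2 lower, against 6.92% of all probe sets (2.55% higher and 4.37% lower). Among brighter probe sets the share was 15.6%, above that of the members. RpL36A read 12.52, 12.57 and 12.60, above wild type, a difference of 0.32 ± 0.03 (adjusted p = 3.66e-06). RpL29 was higher by 0.27 ± 0.05 (adjusted p = 0.00108) and RpS21 by 0.12, the latter with overlap and with no call once Arm array 2B or 2C or wild type array 2A or 2B was left out (adjusted p up to 0.165). RpS12 was lower by a difference of -0.36 ± 0.06 (adjusted p = 0.00029) and RpL27 by -0.20 ± 0.04 (adjusted p = 0.00223). After quantile normalization the split was 4 higher and 1 lower, against 2.58% and 4.28% of all probe sets. The actin control was 1.14 to 1.22 in Arm against 0.88 to 1.00 in wild type, and 3 of 4 neural and 2 of 7 germ cell markers were lower. Their part in the result was not tested.

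Activated Ras changed 7 members (18.9%), 4 higher and 3 lower, against 4.59% of all probe sets (2.47% higher and 2.12% lower). Among brighter probe sets the share was 11.3%. RpS5b read 11.50, 11.73 and 11.59, below its wild type arrays, a difference of -0.60 ± 0.08 (1.52-fold lower, adjusted p = 8.01e-05). RpL24-like was lower by a difference of -0.53 ± 0.11 (adjusted p = 0.00412) and RpS12 by -0.47 ± 0.06 (adjusted p = 1.84e-05). The 4 rises were RpS20 (0.22), RpS21 (0.19), RpL36A (0.18) and RpS15 (0.14), and all 7 calls held without any 1 array. Without the variance trend all 4 rises lost their call (adjusted p 0.311 to 0.593). The 3 falls were still called there, against 2.82% of all probe sets. The actin control was 0.68 to 0.82 in Ras, below wild type, and 2 of 4 markers of hemocytes and fat body and 1 of 5 of mesoderm were higher. Their part in the result was not tested.

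With both transgenes, 4 members were called (10.8%), 1 higher and 3 lower, against 2.42% of all probe sets (1.37% higher and 1.05% lower). Among brighter probe sets the share was 5.8%. RpLP0-like (-0.35 ± 0.08), RpS12 (-0.23 ± 0.06) and RpLP2 (-0.18 ± 0.04) were lower and RpS20 (0.15 ± 0.03) was higher, with adjusted p from 0.011 to 0.0349. None of the 4 calls held when each array was left out in turn. RpS12 was lost without any array but Arm+Ras 2A (adjusted p up to 0.153), RpLP0-like without any Arm+Ras array or wild type 2B (0.0868), RpLP2 without Arm+Ras 2A or 2B or wild type 2B or 2C (0.123) and RpS20 without Arm+Ras 2B or 2C or wild type 2A (0.0702). After quantile normalization 3 were higher and 1 was lower, against 1.33% and 1.09% of all probe sets. RpS5b differed by -0.12 in Arm+Ras and did not pass the test. Of the markers, 2 of 4 of hemocytes and fat body and 1 of 5 of mesoderm were higher in Arm+Ras, and their part in the result was not tested.

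**Figure D5:**
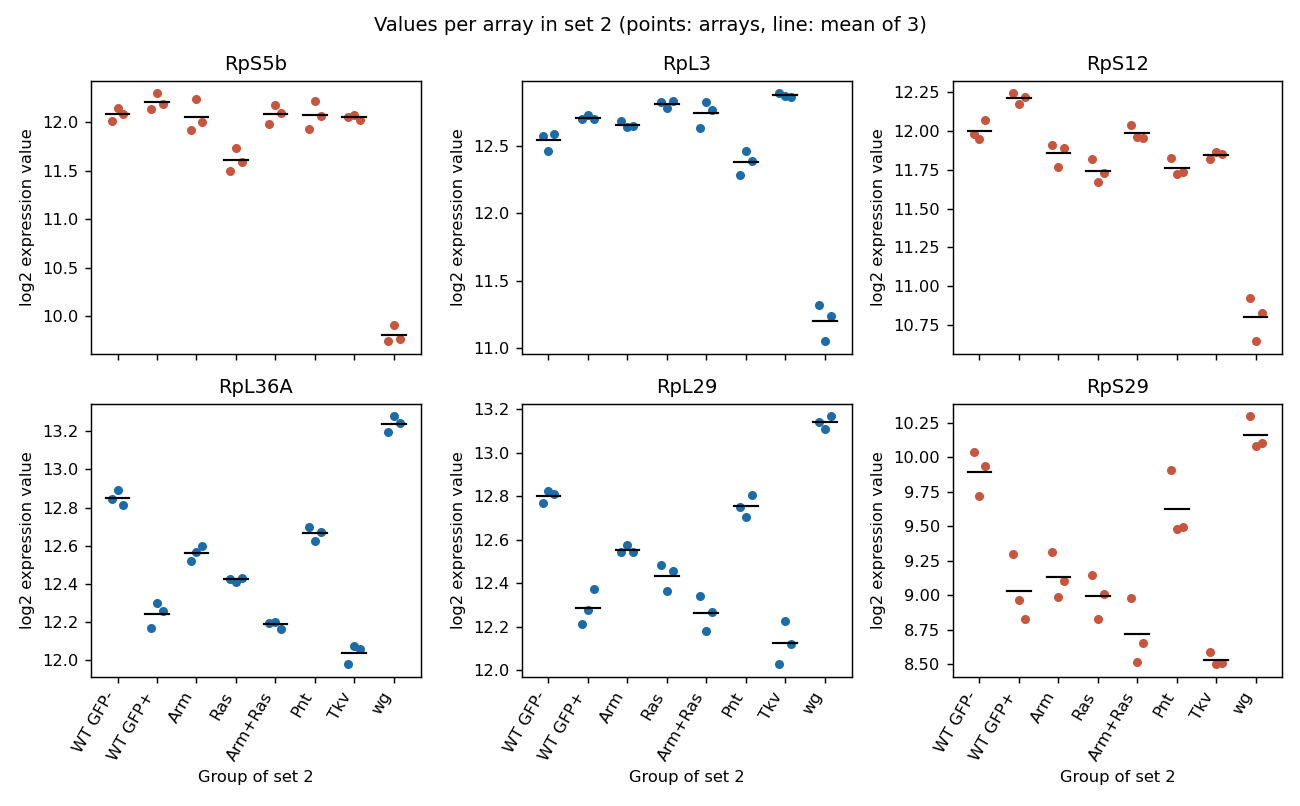
Log2 values of 6 genes on every array of set 2, by group (points are arrays and lines the mean of 3). The wg arrays stand apart from all other groups for RpS5b, RpL3 and RpS12 on the low side and for RpL36A and RpL29 on the high side, and RpS12 has its highest values in wild type GFP positive cells.

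RpS12 and RpS20 were called in more genotypes than any other member, in 6 of 12 each. RpS12 was lower in all 6 genotypes of set 2, which share 1 set of wild type GFP positive arrays, so these calls are not independent of each other. Those arrays read 12.18 to 12.24, and the wild type GFP negative arrays 11.98, 11.95 and 12.07. Every genotype array of set 2 stood at 12.04 or lower. RpS20, a small subunit protein, was higher in 6 genotypes, namely EGFR and FGFR in set 1 and Ras, Arm+Ras, Tkv and wg in set 2. In set 2 its wild type GFP positive arrays read 12.68, 12.75 and 12.71 and its GFP negative arrays 12.87, 12.83 and 12.82. The RpS20 calls of a set share its wild type arrays too. Without the variance trend all 6 calls of RpS20 were lost (adjusted p 0.0667 to 0.727). Its call in wg was also lost after quantile normalization (0.06, adjusted p = 0.247). RpS12 lost its calls in Arm, Arm+Ras and Tkv without the variance trend (adjusted p 0.0552 to 0.528).

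In the genotypes of set 1 few ribosomal protein genes passed the test. Activated EGFR changed 2 members (5.41%), against 2.74% of all probe sets (1.3% higher and 1.43% lower). Among brighter probe sets the share was 6.85%, above that of the members. RpS5b read 11.25, 11.40 and 11.29 in EGFR and 11.53, 11.81 and 11.62 in wild type, without overlap. Its difference was -0.34 ± 0.07 (1.27-fold lower, adjusted p = 0.0124), and the call ended without EGFR array 1A (adjusted p = 0.0633) or 1C (adjusted p = 0.0511). RpS20 was higher by 0.22 ± 0.05 (adjusted p = 0.0465) and lost its call without any 1 array other than wild type 1B (adjusted p up to 0.173).

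Activated FGFR changed 3 members (8.11%), against 2.21% of all probe sets (1.23% higher and 0.974% lower) and 5.2% of brighter probe sets. All 3 were small subunit genes that rose. RpS20 (0.24 ± 0.05), RpS18 (0.20 ± 0.04) and RpS15 (0.18 ± 0.04) had adjusted p-values of 0.0352, 0.0342 and 0.0241. RpS20 was lost without any array but wild type 1B (adjusted p up to 0.142), RpS18 without any but wild type 1A (0.139) and RpS15 without FGFR 1B or 1C or wild type 1A or 1C (0.1). None was called after quantile normalization, against 2.22% of all probe sets, and 9 had an unadjusted p under 0.05. There RpS20 differed by 0.08 and RpS15 by 0.08. Loss of spi, which encodes an EGFR ligand, changed 1 member (2.7%), against 3.19% of all probe sets (1.75% higher and 1.43% lower) and 7.39% of brighter probe sets. RpS29 read 8.08, 8.02 and 8.06 in spi and 8.32, 8.53 and 8.57 in wild type, a difference of -0.42 ± 0.07 (1.34-fold lower, adjusted p = 0.00602), and this call held without any 1 array. It was lost without the variance trend (adjusted p = 0.0817). After quantile normalization 3 members were called in spi, 1 higher and 2 lower, against 1.73% and 1.44% of all probe sets. These 3 comparisons share the wild type arrays of set 1. Neural markers were lower for 1 of 4 in EGFR, 2 of 4 in FGFR and 3 of 4 in spi, mesoderm markers were higher for 2 and lower for 1 of 5 in EGFR and 1 each in FGFR, and 1 of 7 germ cell markers was lower in each genotype. Their part in the results was not tested.

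Set 3 gave few calls apart from RpS5b in the main fits, which leave out the replicate letter. With loss of Dl, the ligand gene of Notch, limma called 0 members at an adjusted p of 0.05, against 2.37% of all probe sets (0.859% higher and 1.51% lower), and 5 had an unadjusted p under 0.05. With loss of lmd, a transcription factor gene of fusion-competent myoblasts, it called 0 members, against 1.03% (0.365% higher and 0.666% lower), and 2 had an unadjusted p under 0.05. Activated Notch changed 2 members (5.41%), against 1.48% of all probe sets (0.422% higher and 1.06% lower). Brighter probe sets were called for 6.64% in Dl, 2.68% in lmd and 3.61% in Notch. The eIF-4a control was 2.83 to 3.74 in Dl, 2.80 to 3.87 in lmd and 2.90 to 3.43 in Notch, above the 2.37 to 2.79 of wild type. With it as a covariate 7 members were called in each, against 5.33%, 4.54% and 4.91% of all probe sets. Every array of these genotypes lay above every wild type array of set 3 in this control, so that fit cannot separate its shift from the genotype. A fit with the replicate letter as a block also called members in Dl and lmd (counts in the closing section). All probe sets were then called for 5.08% in Dl and 2.76% in lmd.

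RpS5b was the member that rose with Notch. Its arrays read 11.22, 11.30 and 11.11, above the wild type arrays at 10.45, 10.62 and 10.52, with a difference of 0.68 ± 0.09 (1.6-fold, adjusted p = 0.00121). The genotypes of set 3 differ in age from their wild type but not from each other. RpS5b read 10.61, 10.36 and 10.46 in Dl and 10.67, 10.59 and 10.35 in lmd. At matched age, Notch was higher than Dl by 0.73 ± 0.09 (adjusted p = 0.000235) and higher than lmd by 0.67 ± 0.09 (adjusted p = 0.000671), and all 3 calls held without any 1 array. Without the variance trend the call against wild type was lost (adjusted p = 0.0599). Neural markers were lower for 3 of 4 in Notch against wild type (median -1.04), for 4 of 4 against Dl and for 2 of 4 against lmd. Mesoderm markers gave 1 higher and 1 lower of 5 against wild type, 2 higher and 1 lower against Dl and 1 lower against lmd. Against Dl, 1 of 5 ectoderm markers was lower. Markers of hemocytes and fat body gave 1 higher and 1 lower of 4 against Dl and 1 lower against lmd. The part of these markers in the result was not tested.

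RpS29 was lower with Notch, at 7.24, 7.57 and 7.62 against 7.96, 8.23 and 8.16 in wild type, a difference of -0.64 ± 0.13 (1.55-fold lower, adjusted p = 0.025). Without Notch array 3A or 3B or wild type array 3B or 3C the call ended (adjusted p up to 0.126). Against Dl, RpLP0-like was higher in Notch by 0.66 ± 0.15 (adjusted p = 0.0145), and this call ended without Dl 3A or 3B or Notch 3B or 3C (adjusted p up to 0.069). Between Notch and Dl 2 members were called, both higher in Notch, against 5.36% of all probe sets (2.55% higher and 2.81% lower). Between Notch and lmd 1 was called, against 3.61% (1.38% higher and 2.23% lower). Between Dl and lmd limma called 0, against 1.7% (0.838% higher and 0.859% lower), and 1 had an unadjusted p under 0.05.

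In 3 pairs of paralogs both genes are members, and 1 gene of each pair gave the calls. Signals of different probe sets do not measure relative amounts of RNA, so each gene is compared only with itself. RpL10Ab differed by -0.89 ± 0.03 in wg and -0.17 ± 0.03 in Pnt, RpS28b by 0.68 ± 0.06 in wg and 0.22 ± 0.06 in Pnt, and RpL37-1 by -0.86 ± 0.05 in wg.

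Their paralogs RpL10Aa, RpS28a and RpL37-2 gave no call. RpL10Aa ranged from -0.78 to 3.70 over the 54 arrays and RpS28a from 0.63 to 5.08, so that differences of over 1 on the log2 scale did not pass. The lowest adjusted p of any comparison was 0.263 for RpL10Aa, 0.198 for RpS28a and 0.0615 for RpL37-2. RpL22-like (0.248) and RpS19b (0.0513), whose counterparts have no single-gene probe set named here, also had no call.

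RpS5b is known in Drosophila mainly from the ovary. It was called in 4 of 12 genotypes, lower in EGFR, Ras and wg and higher in Notch. Its gate difference was -0.18 in set 1, 0.13 in set 2 and -0.21 in set 3, and neither the gate (adjusted p = 0.383) nor the gate by set term (adjusted p = 0.0905) passed. RpS5a has no single-gene probe set named here, and whether the probes of RpS5b also take up its transcript was not tested. Of the 7 measured germ cell markers, 2 were lower in GFP positive than in GFP negative cells and 1 was lower in wg.

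Genes that make and use ribosomes were set beside the members. Between the gates, where 8.03% of all probe sets were higher and 8.66% lower, ribosome biogenesis genes were higher in GFP positive cells for 15 of 26 measured and lower for 0, with a median of 0.47. The snoRNP protein gene Nop56 was higher by 0.57 ± 0.05, the RNA polymerase I subunit gene Polr1A by 0.62 ± 0.07 and nclb by 0.74 ± 0.09. Mitochondrial ribosomal protein genes were higher for 24 of 64 and lower for 0, with a median of 0.27. Translation factor genes had, of 24, 1 higher (eIF2beta, 0.41) and 1 lower (eIF5, -0.67). Of 12 genes of TOR, Myc and growth control, limma called 0 in the gate comparison, and 1 had an unadjusted p under 0.05.

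In wg, where 11% of all probe sets were higher and 15.5% lower, these lists held genes of both directions. Ribosome biogenesis genes gave 7 higher and 11 lower of 26, and mitochondrial ribosomal protein genes 29 higher and 16 lower of 64. Translation factor genes gave 7 higher and 13 lower of 24, with a median of -1.33, and eIF4A, whose transcript the control probe sets also measure, differed by -1.66. Of the genes listed under other symbols, Rack1, a small subunit protein, differed by -1.86 ± 0.06, and Ubi-p63E, a polyubiquitin gene, by -2.34 ± 0.09. Of the growth genes, Max (1.45) was higher and Dref (-0.95) and M1BP (-1.81) were lower, and Dref and M1BP both encode factors that bind core promoters.

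In Pnt, where 3.87% of all probe sets were higher and 4.98% lower, biogenesis genes gave 1 higher and 8 lower of 26, and mitochondrial ribosomal protein genes 17 higher and 2 lower of 64. Translation factor genes gave 3 higher and 9 lower of 24 there (median -0.23), and growth genes 1 higher and 2 lower of 12. In Tkv, where 4.43% were higher and 3.95% lower, mitochondrial ribosomal protein genes gave 0 higher and 36 lower, with a median of -0.47, and biogenesis genes 3 higher and 5 lower. Translation factor genes gave 3 higher and 4 lower in Tkv (median 0.09), and growth genes 2 higher and 0 lower. These comparisons share the wild type arrays of set 2.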

How the data were processed

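The authors deposited 1 log2 value per probe set and array. The submitters' processing notes name the affy package. The version, background correction and normalization are not given in the sources used here, and base 2 was taken from the range of the values. All 54 arrays were used. Control probe sets (44) were left out and 13966 tested, with no filter on low values and 10 missing values.

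Groups were fitted with limma 3.58.1 in R 4.3.3 (lmFit, eBayes with a variance trend). Genotypes were fitted within a set over all its arrays, with 1 mean per group, and the gate over the 18 wild type arrays, blocking on the set. P-values are two-sided. The number of arrays limits the precision. Fits were tested on simulated data. Tables were made with pandas 2.3.3 and numpy 2.4.6 under Python 3.11.15, and figures with matplotlib 3.10.9.

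A member was represented by its brightest single-gene probe set. Another 2 probe sets name a member together with another gene and were left out. Up to 4 called members per direction were named in a comparison, with paralogs, frequently called members, and up to 3 genes of each related list. Members and lists were chosen with earlier results of these data known. The alternatives were no variance trend, quantile normalization within each set, brighter probe sets only, the mean over a gene's probe sets, a replicate block, each set on its own, leaving out each array, and, chosen after seeing the data, sets 1 and 3 only and the eIF-4a covariate.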

Additional observations from a re-analysis of the deposited data

Results flagged for a closer look

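The difference between GFP positive and GFP negative wild type cells differed between the 3 sets for 7 members, by an F test of the gate by set term in limma, adjusted over all probe sets. The test called 7.94% of all probe sets and 18.8% of brighter ones, the latter near the share of the members. Without the variance trend it called 0 members, against 4.49% of all probe sets, and 7 had an unadjusted p under 0.05. In the main fit the adjusted p-values were 0.00361 for RpS21, 0.0039 for RpS28b, 0.00541 for RpL36A, 0.00733 for RpL29, 0.00747 for RpS29, 0.0299 for RpS27A and 0.0463 for RpS7. In 6 of them the GFP positive cells of set 2 were lower, by log2 differences of -0.86 (RpS29) to -0.33 (RpS21), and in RpS7 they were higher by 0.22. The eIF-4a control (3′ minus 5′ probe set) was 2.01 to 2.24 in the GFP positive and 2.29 to 2.37 in the GFP negative arrays of set 2, and its part in the result was not tested.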

How the results depend on the processing

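Of 95 calls of single members, 37 held without the variance trend, 80 after quantile normalization, 94 with brighter probe sets only, 95 with the mean over a gene's probe sets, 90 with the replicate block and 65 with the eIF-4a covariate. Without the variance trend the number of called members was 1 for the gate (14.8% of all probe sets), 3 for Ras (2.82%), 4 each for Pnt (6.71%) and Tkv (5.91%), and 1 for Notch against Dl (3.33%). It was 0 for EGFR, FGFR, spi, Arm, Arm+Ras, Notch and the gate by set term, against 0.895% (Notch) to 4.94% (Arm) of all probe sets. After quantile normalization it was 0 for FGFR (2.22% of all probe sets) and 3 for spi (3.17%), and the median difference was -0.0352 for EGFR and -0.0132 for spi. With brighter probe sets only it was 3 for spi (7.39% of those tested). In set 2 alone the gate gave 14 (13.1% of all probe sets) and in set 3 alone 0 (4.14%). With the eIF-4a covariate it was 1 for EGFR (2.08% of all probe sets), 0 for FGFR (1.56%) and 15 for wg (5.68%). It was 7 each for Dl (5.33%), lmd (4.54%) and Notch (4.91%), 4 for Notch against Dl (7.63%) and 3 for Notch against lmd (5.71%). The direction turned for RpS29 in the gate of set 3 alone (0.11), for RpL40 (0.22) and RpL27 (0.18) in wg after quantile normalization, and for RpL40 (0.26) and RpL7-like (-0.44) in wg with the covariate. The cause of these changes was not tested.

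Leaving out 1 array gave 1 to 4 called members for the gate, 0 to 2 for EGFR, 0 to 2 for FGFR, 1 to 2 for spi, 0 to 3 for Arm+Ras, 1 to 2 for Notch and 1 to 2 for Notch against Dl. The median difference then ranged from -0.0065 to 0.0335 for EGFR, 0.006 to 0.0425 for FGFR, 0.00617 to 0.0768 for spi, 0.0345 to 0.0638 for Arm and -0.0103 to 0.202 for wg. Replicate letters are shared by the groups of a set. Deviations of same-letter arrays from their group means had a median correlation of 0.02 in sets 1 and 2 and 0.04 in set 3, against -0.01 in sets 1 and 2 and -0.05 in set 3 for other letters, and 33.3% of the same-letter pairs of set 3 were over 0.1 (highest 0.155). The arrays correlated best with their own letter for 11 of 15, 18 of 24 and 10 of 15. The main fits left the letters out because not every pair was over 0.1, a rule that cannot show that pairing was absent. Some members of set 3 shared a deviation by letter: RpL37A read 11.09 to 11.49 on the 5 A arrays and 10.48 to 10.76 on the others. With the letter as a replicate block the number called was 1 for the gate (13.7% of all probe sets), 4 for EGFR (3.39%), 5 for spi (4.18%) and 7 for Arm+Ras (3.11%). It was 4 for Dl (5.08%), 3 for lmd (2.76%), 3 for Dl against lmd (3.66%), 6 for Notch against Dl (8.64%) and 5 for Notch against lmd (6.16%). With 3 arrays per group, members with a wide spread, such as RpL10Aa, could differ by over 1 on the log2 scale without a call.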

Other observations

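Genes of the translation initiation complex eIF3, which binds the small subunit, were mostly lower in wg mutant cells. These genes were singled out after their values were seen. Of the 13 eIF3 genes in the list of translation factors, which leaves out some paralogs, 11 were lower and 1 was higher, with a median of -1.59, where 15.5% of all probe sets were lower and 11% higher. Among brighter probe sets 30.5% were lower and 18.9% higher. The eIF-4a control was 3.29 to 3.59 in the wg arrays against 2.01 to 2.24 in wild type GFP positive. That shift and the genotype cannot be told apart, and its part in the eIF3 result was not tested. The largest fall was eIF3f1 (-2.29 ± 0.07, adjusted p = 1.19e-15), followed by eIF3i (-2.00 ± 0.08) and eIF3a (-1.96 ± 0.18). The loosely bound subunit gene eIF3j was higher by 0.98 ± 0.14 (adjusted p = 1.55e-05), and eIF3k (-0.26, adjusted p = 0.127) did not pass. The other genotypes of set 2 share their wild type arrays with wg. In Arm, Ras and Pnt 6 of the 13 were lower each, with medians of -0.31, -0.41 and -0.34, where 4.37%, 2.12% and 4.98% of all probe sets were lower. In Tkv 3 were lower and 1 was higher (median -0.00, 3.95% of all probe sets lower). In Arm+Ras limma called 0 of the 13 (median -0.13, 1.05% of all probe sets lower), and 4 had an unadjusted p under 0.05. Set 1 has wild type arrays of its own. There 2 were lower in EGFR, 2 in FGFR and 4 in spi, where 1.43%, 0.974% and 1.43% of all probe sets were lower. In Dl, lmd and Notch limma called 0 of the 13, and 2, 3 and 1 had an unadjusted p under 0.05.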
